A study of Homo sapiens with 2 samples.

Results

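The genes described here encode the hemidesmosome of basal epithelial cells and 2 chains of its matrix ligand, laminin-332. They are the 9 rows of the count tables whose Ensembl identifiers carry, in GENCODE release 44, the symbols LAMA3, LAMB3, ITGA6, ITGB4, ITGA3, CD151, COL17A1, PLEC and DST, out of 58735 rows in all. All 9 had counts in both libraries, and all 9 passed the filter of a mean of 5 or more counts per 1000000 (CPM). The cells were MCF10a-Snail-ER, a human mammary epithelial line that stably expresses Snail, which represses epithelial genes, as a fusion with the estrogen receptor. They were grown in DMEM/F-12 with horse serum, EGF, hydrocortisone, cholera toxin, insulin, glutamine and antibiotics, and were treated with 100 nM tamoxifen for 1 day to activate the fusion and start an epithelial-to-mesenchymal transition. Polyadenylated RNA was sequenced as 1 Nanopore direct RNA library on the MinION and as 1 Illumina TruSeq stranded mRNA library, and the series calls these RNA samples matched. Both libraries carry the fusion and the treatment, and no library without tamoxifen was analysed here, so the values are levels in treated cells and not a response to Snail.

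A hemidesmosome is a plaque that rivets a basal epithelial cell to the basement membrane. Outside the cell, laminin-332 is bound by integrin α6β4 and by integrin α3β1, and collagen XVII spans the membrane beside them. Inside, plectin and the epithelial form of dystonin tie the plaque to keratin filaments, and the tetraspanin CD151 associates with the laminin-binding integrins. In the mammary gland hemidesmosomes lie on the basal, myoepithelial side of the duct, and they are dismantled as cells detach and migrate.

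The totals were 403235 counts by Nanopore and 191741714 by Illumina, a 476-fold difference in depth. A single Nanopore count stood for 2.48 CPM, so the Nanopore counts of the 9 genes, 20 to 86, set the precision of every comparison below. With 1 library per platform there is no replicate, the tests compare these libraries only, and intervals cover counting error only. The basal mammary markers KRT5, KRT14, KRT17, TP63 and ITGB4, the last itself among the 9 genes, were all detected by both platforms. Their summed levels were 3167 CPM (Nanopore) and 2594 CPM (Illumina). KRT5 held the largest part, at 1686 and 1447 CPM. TP63 was the lowest, with 5 Nanopore counts, 12.4 CPM, and 33.2 CPM by Illumina. The luminal keratins KRT8 and KRT18 were present as well, at 389 and 280 CPM by Nanopore, whereas KRT19 and EPCAM had 1 and 3 Nanopore counts and stood at 0.459 and 4.02 CPM by Illumina. Of the 5 fibroblast markers DCN was highest, at 24.8 CPM by Nanopore, and COL1A1, COL3A1 and PDGFRB had no Nanopore count. The 3 endothelial and 4 leukocyte markers had no Nanopore count and summed to 5.16 and 0.125 CPM by Illumina.

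Together the 9 genes held 445 Nanopore counts, or 0.110% of that library (95% Wilson interval 0.101 to 0.121%), and 481141 Illumina counts, or 0.251% (0.250 to 0.252%). Every one of them was lower by Nanopore than by Illumina in CPM. By an exact conditional binomial test with Benjamini-Hochberg adjustment over all 12414 genes tested, all 9 had an adjusted p-value below 0.05 in that direction, and 27.2% of all tested genes did. None was higher by Nanopore, against 20.2%. A ratio of 4-fold or more, with 1 CPM added to each value, was reached by 1 of the 9, ITGA6, against 7.31% of tested genes, and no member was 4-fold higher by Nanopore, against 12.9%. The median log2 ratio of Nanopore over Illumina was −1.27 for the 9 genes and −0.42 for all tested genes.

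**Figure D1:**
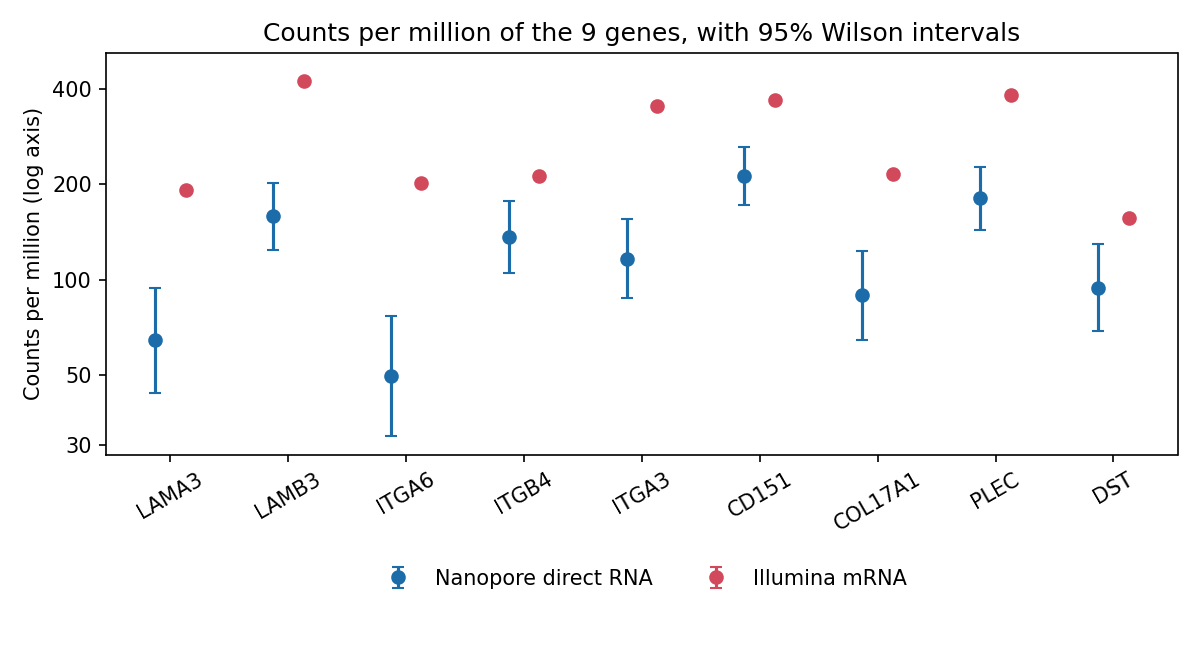
Counts per 1000000 (CPM, log axis) of the 9 genes in the Nanopore direct RNA library (blue) and the Illumina mRNA library (red), 1 library each, with 95% Wilson intervals that are narrower than the marker for Illumina. Every blue point lies below the red point of the same gene, with ITGA6 furthest apart (49.6 and 202 CPM) and ITGB4 closest (136 and 212 CPM).

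The ligand genes came first. LAMA3 (ENSG00000053747, chromosome 18, 23689453 to 23956222, plus strand, hg38) encodes the α3 chain, whose C-terminal end carries the integrin-binding domains. It had 26 Nanopore counts, 64.5 CPM (44.004 to 94.478), and 36731 Illumina counts, 192 CPM (190 to 194). The Illumina level was 2.97-fold higher (95% exact interval 2.03 to 4.55; exact binomial adjusted p = 2.09e-10). LAMB3 (ENSG00000196878, chromosome 1, 209614870 to 209652425, minus strand) encodes the β3 chain, which pairs with α3 in the coiled coil of the trimer. It had 64 Nanopore counts, 159 CPM (124 to 203), and 81075 Illumina counts, 423 CPM (420 to 426), the highest Illumina CPM of the 9 genes. Its level was 2.66-fold higher by Illumina (2.09 to 3.46; exact binomial adjusted p = 2.21e-19). The intervals of LAMA3 and LAMB3 did not overlap within either library, so the α3 chain gene had fewer reads than the β3 chain gene on both platforms. For a lower level of this kind in bulk RNA, fewer cells with the transcript and less of it per cell cannot be told apart.

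Among the receptor genes, ITGA6 (ENSG00000091409, chromosome 2, 172427354 to 172506459, plus strand) encodes the α6 subunit that confers laminin binding. It was the lowest of the 9 by Nanopore, with 20 counts, 49.6 CPM (32.1 to 76.6), and had 38774 Illumina counts, 202 CPM (200 to 204). The difference was 4.08-fold (2.64 to 6.68; exact binomial adjusted p = 7.84e-15), and its log2 ratio of −2.01 stood just past the 4-fold threshold. The call ended under TMM scaling (−1.92), median-ratio scaling (−1.88) or a pseudocount of 5 CPM (−1.92). ITGB4 (ENSG00000132470, chromosome 17, 75721328 to 75757818, plus strand) encodes the β4 subunit, whose long cytoplasmic tail recruits plectin. It had 55 Nanopore counts, 136 CPM (105 to 178), and 40741 Illumina counts, 212 CPM (210 to 215), a 1.56-fold difference (1.20 to 2.07; exact binomial adjusted p = 0.00175). ITGB4 was thus the member nearest to equal values on the platforms, and its partner ITGA6 the furthest.

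ITGA3 (ENSG00000005884, chromosome 17, 50055968 to 50090481, plus strand) encodes the α3 subunit that joins β1 to bind laminin-332 in focal contacts. It had 47 Nanopore counts, 117 CPM (87.7 to 155), and 68001 Illumina counts, 355 CPM (352 to 357), a 3.04-fold difference (2.29 to 4.14; exact binomial adjusted p = 2.58e-19). CD151 (ENSG00000177697, chromosome 11, 832887 to 839831, plus strand), the tetraspanin, was the highest of the 9 by Nanopore, with 86 counts, 213 CPM (173 to 263). Its Illumina level of 371 CPM (368 to 374; 71092 counts) was 1.74-fold higher (1.41 to 2.17; exact binomial adjusted p = 1.50e-07). COL17A1 (ENSG00000065618, chromosome 10, 104031286 to 104085880, minus strand) encodes collagen XVII, the transmembrane collagen of the plaque. It had 36 Nanopore counts, 89.3 CPM (64.5 to 124), against 41413 Illumina counts, 216 CPM (214 to 218), a 2.42-fold difference (1.75 to 3.45; exact binomial adjusted p = 6.81e-09). Of these 3 genes CD151 was the closest to equal on the platforms and also has the shortest exonic length of the 9.

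The plaque proteins inside the cell are encoded by the longest transcripts of the set. PLEC (ENSG00000178209, chromosome 8, 143915153 to 143976734, minus strand) encodes plectin, a plakin that links integrin β4 to keratin. It had 73 Nanopore counts, 181 CPM (144 to 228), and 73332 Illumina counts, 382 CPM (380 to 385), a 2.11-fold difference (1.68 to 2.70; exact binomial adjusted p = 4.39e-12). DST (ENSG00000151914, chromosome 6, 56457987 to 56954830, minus strand) encodes dystonin, a plakin with epithelial, neuronal and muscle forms. It had 38 Nanopore counts, 94.2 CPM (68.7 to 129), and 29982 Illumina counts, 156 CPM (155 to 158), the lowest Illumina CPM of the 9. The DST difference was 1.66-fold (1.21 to 2.35; exact binomial adjusted p = 0.00293). PLEC and DST were therefore among the smaller differences in CPM although their exons span the most bases.

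Direct RNA sequencing reads each strand from its poly(A) tail, so a Nanopore count stands for about 1 strand read and was not divided by length. Illumina counts grow with transcript length. Whether the Nanopore yield also depends on length was not tested. The tested genes were split by union exonic length into 5 groups of near equal size. LAMA3, ITGA3, PLEC and DST were in the longest group, 8628 bases or more, whose median log2 ratio was −0.91 and of which 41.1% were lower by Nanopore at an adjusted p below 0.05. ITGA6, ITGB4 and COL17A1 were in the next longest group (median −0.77), LAMB3 in the middle group (−0.58) and CD151 in the next shortest (−0.23). No member was in the shortest group, where the median was 1.21. LAMA3, LAMB3, ITGA6, ITGA3, COL17A1, PLEC and CD151 had ratios below the median of their own group, and ITGB4 and DST above it. Ranked among all tested genes, the ratios of the 9 lay between the 8.03 percentile (ITGA6) and the 42.3 percentile (ITGB4).

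**Figure D2:**
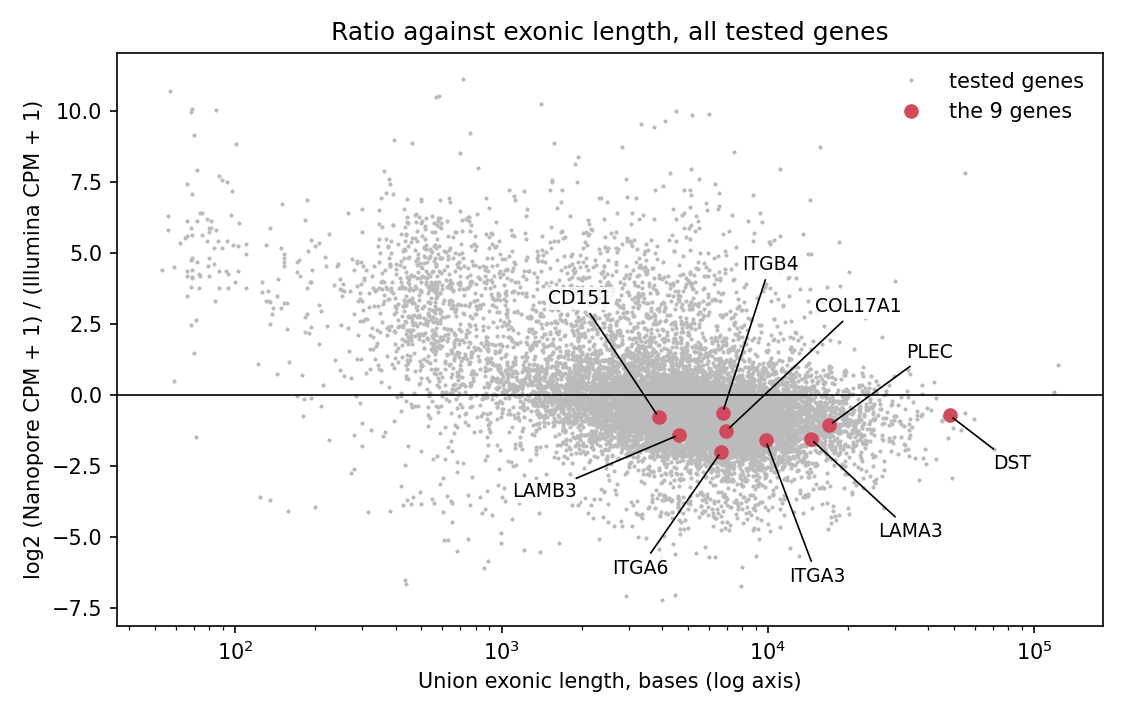
The log2 ratio of Nanopore to Illumina CPM, with 1 added to each (vertical axis), against union exonic length in bases (log axis) for each tested gene with an annotated length (grey) and the 9 genes (red, named). The red points lie between −2.01 and −0.64, all below 0, and DST lies at the far right with 48142 exonic bases.

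Per length, the order of the genes by Illumina differed from their order in CPM. With transcripts per 1000000 (TPM) by union exonic length, CD151 (258 TPM) and LAMB3 (246 TPM) led, followed by ITGA3 (98.0), ITGB4 (85.1), COL17A1 (83.7) and ITGA6 (82.0). PLEC was at 61.0 TPM, LAMA3 at 35.8 and DST at 8.80, so the levels spanned 29.3-fold. With the length of the Ensembl canonical transcript, CD151 was at 372 TPM, LAMB3 at 163 and ITGA3 at 112, and the order below them was COL17A1, ITGB4, ITGA6, PLEC, LAMA3 and DST. The mean length of all annotated transcripts placed CD151 first (477 TPM) and DST last (31.5 TPM) as well, with ITGA3 (254) ahead of LAMB3 (183). By Nanopore counts the 9 genes spanned 4.30-fold, in the order CD151, PLEC, LAMB3, ITGB4, ITGA3, DST, COL17A1, LAMA3 and ITGA6. No neighbours in that Nanopore order differed beyond counting error: all 8 ratios of adjacent counts had 95% exact intervals that included 1. Over all 36 pairs, 21 did have an interval above 1, such as CD151 over ITGA3 and PLEC over DST.

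After division by length the platforms no longer differed in one direction. With union exonic length, 4 genes were higher by Nanopore at an adjusted p below 0.05 (LAMA3, ITGB4, PLEC and DST; 32.4% of all tested genes) and 2 were higher by Illumina (LAMB3 and ITGA6; 12.8%). DST alone was also 4-fold higher by Nanopore, against 15.5% of tested genes, with a log2 ratio of 3.28 (exact binomial adjusted p = 1.64e-24). None was 4-fold higher by Illumina under union, mean or canonical length, where 4.84%, 3.95% and 3.4% of tested genes were. With canonical length, 4 were higher by Nanopore (LAMA3, ITGB4, PLEC and DST; 33.2% of tested genes), PLEC and DST 4-fold (16.3%), and CD151 alone was higher by Illumina (11.2%). With mean transcript length, PLEC and DST were higher by Nanopore (24.6%), PLEC 4-fold (13.9%), and ITGA6, ITGA3, COL17A1 and CD151 were higher by Illumina (16.9%). PLEC and DST stood above 0 under all 3 lengths, with log2 ratios of 1.55, 2.35 and 2.15 for PLEC and 3.28, 1.55 and 3.14 for DST by union, mean and canonical length. LAMA3 (0.83, 0.0016 and 1.18) and ITGB4 (0.67, 0.45 and 1.27) did so as well, though by mean length neither had an adjusted p below 0.05.

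**Figure D3:**
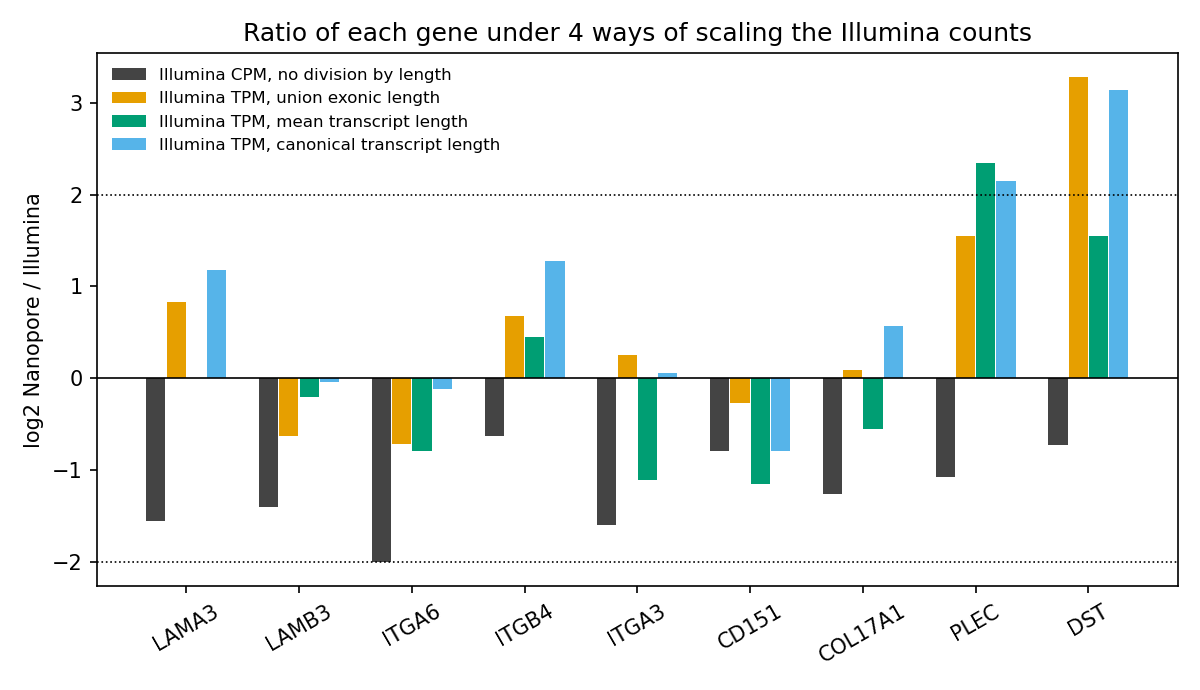
Log2 ratio of Nanopore over Illumina (pseudocount of 1) for each gene with Illumina values in CPM (dark bars) or in TPM by union exonic, mean transcript or canonical transcript length (coloured bars). Dotted lines mark a 4-fold ratio. All dark bars point down, and after division by length the bars of PLEC, DST and ITGB4 all point up. Those of LAMA3 point up by union and canonical length and lie near 0 by mean length (0.0016).

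The length used for a gene depends on which transcript is taken. GENCODE lists 41 transcripts for DST, 23 for CD151, 16 for ITGA3, 15 each for LAMA3 and PLEC, 13 for ITGB4, 12 for ITGA6, 10 for COL17A1 and 5 for LAMB3. The canonical LAMA3 transcript has 10651 bases, while the longest coding transcript from the RefSeq start inside the gene, at 23873020, has 5618. With that shorter length the LAMA3 level by Illumina was 52.8 TPM and its log2 ratio 0.28, in place of 27.9 TPM and 1.18. For DST the canonical transcript has 24709 bases, and the longest from the inner RefSeq starts at 56851905 and 56642889 have 17756 and 16742. The log2 ratio of DST with those lengths was 2.70 and 2.62, which left it above 0. Shorter coding transcripts are annotated from the same starts, down to 17436 and 3547 bases, and the ratio with those lengths was not computed. For ITGA6, the longest coding transcript from the RefSeq start at 172427336 has 3544 bases in place of the canonical 5816, which gave 88.4 TPM and a log2 ratio of −0.82 in place of 53.9 TPM and −0.12. Counts per gene do not tell which of these transcripts was present.

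Ratios between partner genes within a library need no scaling between libraries. ITGA6 and ITGB4 encode subunits of the same integrin, and integrin β4 pairs only with α6. Their ratio was 0.364 by Nanopore (95% exact interval 0.206 to 0.616) and 0.952 by Illumina counts (0.939 to 0.965). Division by union, mean or canonical length left the Illumina ratio at 0.963, 0.871 or 0.965, each outside the Nanopore interval. The platforms thus differed in the balance of these subunit genes whichever of the 3 lengths was used. ITGA6 and ITGB4 each end inside a gene on the opposite strand, with 20 and 61 Nanopore counts, whose part in this ratio was not tested. The ratio of ITGA3 to ITGA6, the alternative laminin-binding α subunits, was 2.35 by Nanopore (1.37 to 4.19) and 1.75 by Illumina counts. The Illumina value per length was 1.20, 2.92 or 2.09, and ITGA3 was the higher gene in each. Only the value by union length lay outside the Nanopore interval.

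LAMA3 to LAMB3 was 0.406 by Nanopore (0.247 to 0.650) and 0.453 by Illumina counts. Per union, mean or canonical length it was 0.145, 0.352 or 0.171, so the α3 chain gene stayed below the β3 chain gene in every case. The values by union and canonical length lay outside the Nanopore interval. DST to PLEC, the plakin genes, was 0.521 by Nanopore (0.342 to 0.781) and 0.409 by Illumina counts. Per length the DST to PLEC ratio was 0.144, 0.908 or 0.245, and PLEC was the higher in each. As for ITGA6 to ITGB4, each value per length lay outside the Nanopore interval, while the undivided Illumina ratio of DST to PLEC lay inside it. ITGA3 was also set against ITGB1, the gene of its β1 partner, which had 166 Nanopore and 140785 Illumina counts. The ratio was 0.283 by Nanopore (0.2003 to 0.394) and 0.483 by Illumina counts, and 0.718, 0.895 or 0.369 per length. ITGA3 was thus below ITGB1 throughout, and β1 serves many other α subunits. Of these Illumina values, only that by canonical length lay inside the Nanopore interval.

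**Figure D4:**
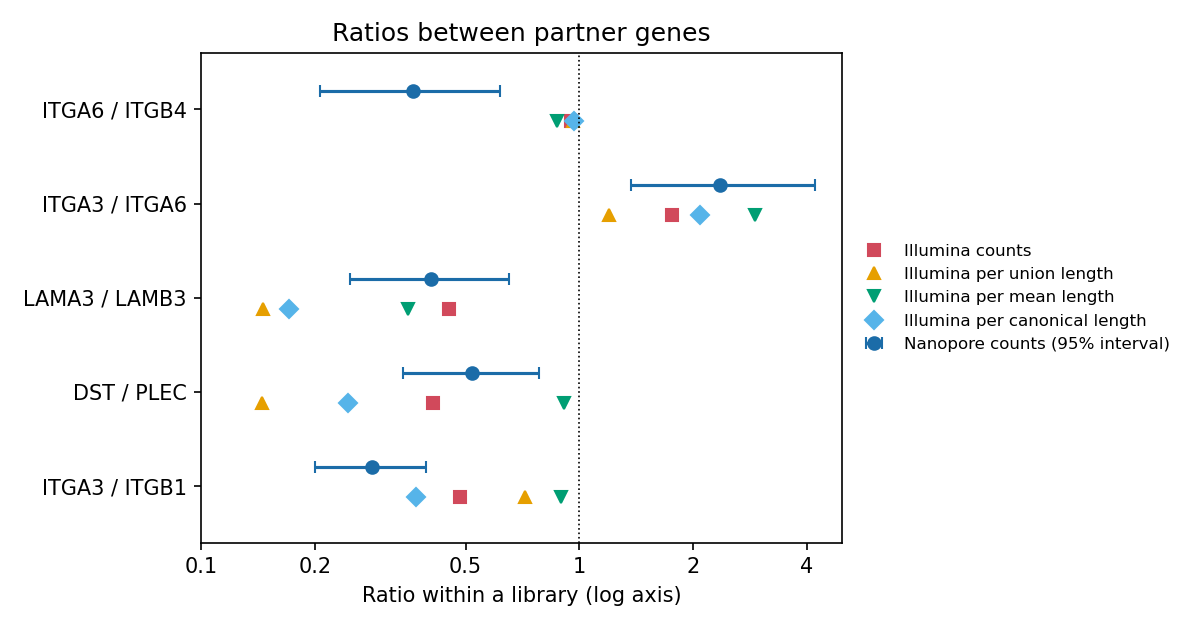
Ratios between partner genes within a library (log axis): Nanopore counts with their 95% exact interval (blue circles) and Illumina counts, undivided or divided by union, mean or canonical length. For ITGA6 over ITGB4 the Illumina values lie at 0.871 to 0.965, outside the Nanopore interval of 0.206 to 0.616. For DST over PLEC the Illumina values per length also lie outside the Nanopore interval, and the undivided value lies inside it.

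The positions of the members were compared with those of all other annotated genes. Of the 9 members, 8 share at least 1 base of their body with another annotated gene, 12 such genes in all, and ITGA3 overlaps none. For 3 members the 3′ end of the canonical transcript, where direct RNA reads begin, lies inside a gene on the opposite strand. ITGA6 ends inside PDK1-AS1 (ENSG00000225205, chromosome 2, 172480840 to 172556596), an antisense lncRNA whose body covers 4566 of the exonic bases of ITGA6. PDK1-AS1 had 20 Nanopore counts, the same number as ITGA6, and only 70 Illumina counts against 38774. Its log2 ratio was 5.21 (exact binomial adjusted p = 5.28e-33). The exons of the 2 genes share 52 bases.

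ITGB4 ends inside GALK1 (ENSG00000108479, chromosome 17, 75751594 to 75765236), the galactokinase gene, with which it shares no exonic base. GALK1 had 61 Nanopore counts, close to the 55 of ITGB4, and 2426 Illumina counts against 40741. The log2 ratio of GALK1 was 3.48 (exact binomial adjusted p = 2.01e-41). CD151 and POLR2L (ENSG00000177700, chromosome 11, 837356 to 842529), which encodes a small RNA polymerase subunit, each end inside the body of the other and share 257 exonic bases. POLR2L had 276 Nanopore counts against 86 for CD151, and 57727 Illumina counts against 71092. Whether single reads were counted for both genes of a pair was not tested. Without ITGA6, ITGB4 and CD151 the median log2 ratio of the other 6 members was −1.34.

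**Figure D5:**
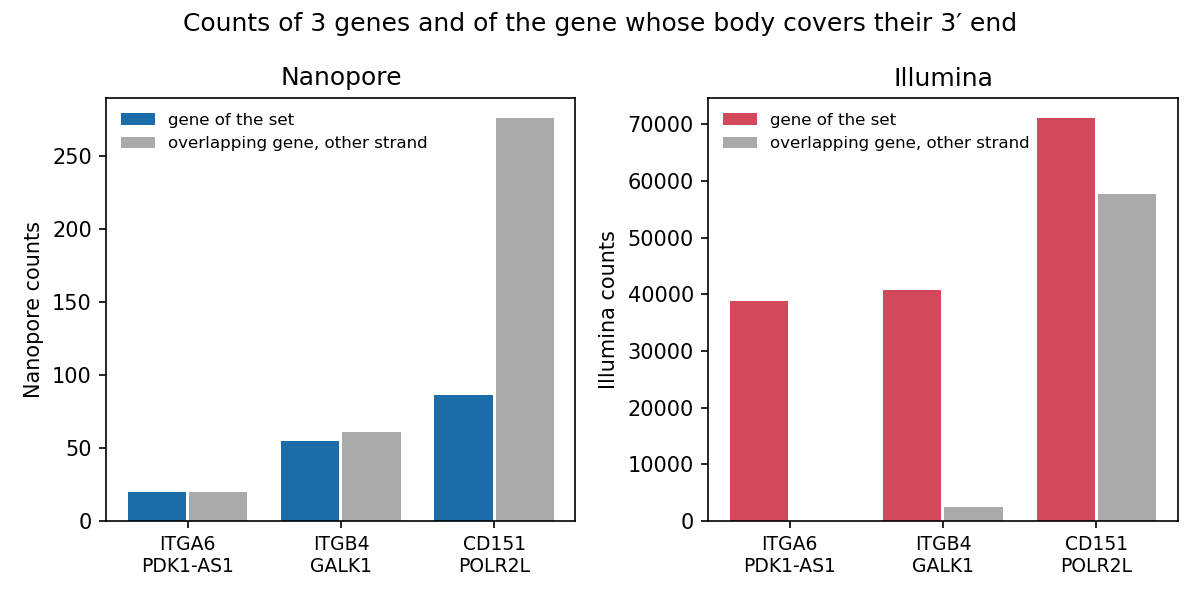
Counts of ITGA6, ITGB4 and CD151 (coloured bars) and of the gene on the opposite strand whose body covers their 3′ end (grey bars), by Nanopore (left) and Illumina (right). The bars of ITGA6 and PDK1-AS1 are equal at 20 by Nanopore and stand at 38774 and 70 by Illumina.

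The other overlapping genes held few reads. MIR4260, whose 67 bases lie within LAMB3, had 48 Illumina counts and no Nanopore count, and the antisense lncRNA genes ITGA6-AS1 and ENSG00000226963 had 46 and 22 Illumina counts and no Nanopore count. In all, 9 of the 12 overlapping genes had no Nanopore count. None of the 9 members had a copy on any of the 261 alternate contigs of hg38, a search that found 6 for HLA-E.

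Since the induced protein is Snail, which binds the E-box CAGGTG, bases before RefSeq start sites of 5 members were searched for that motif. They were also searched for TGANTCA, the motif bound by AP-1 factors. Both strands were read, CACCTG being CAGGTG on the other strand, and TGANTCA reading alike on both. No window of ITGB4, ITGA3, CD151 or PLEC was included, and whether these genes carry either motif was not tested. The RefSeq windows searched on GRCh38.p14 were those of LAMA3, LAMB3, ITGA6, COL17A1 and DST, 10 in all. The 250 bases before each start were used. CAGGTG was in 3 of these 10 windows, of LAMA3, LAMB3 and ITGA6, and in 17.5% of all 35116 windows of that length. TGANTCA was in 2 of the 10, of LAMA3 and LAMB3, and in 6.57% of all windows. The 3 windows shown, 5′ to 3′ on the gene's strand, were chosen because they hold an E-box. The other windows of LAMB3 and ITGA6 had no CAGGTG. Among them is the ITGA6 window before the RefSeq start at 172427586, near which a transcript of the canonical length, 5816 bases, begins. Capitals mark every match of either motif.
LAMA3: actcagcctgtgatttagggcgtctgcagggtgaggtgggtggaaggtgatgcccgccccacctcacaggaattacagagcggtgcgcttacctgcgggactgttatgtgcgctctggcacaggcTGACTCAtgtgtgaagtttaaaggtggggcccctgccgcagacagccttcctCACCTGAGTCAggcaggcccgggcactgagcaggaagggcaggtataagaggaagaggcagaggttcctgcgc
LAMB3: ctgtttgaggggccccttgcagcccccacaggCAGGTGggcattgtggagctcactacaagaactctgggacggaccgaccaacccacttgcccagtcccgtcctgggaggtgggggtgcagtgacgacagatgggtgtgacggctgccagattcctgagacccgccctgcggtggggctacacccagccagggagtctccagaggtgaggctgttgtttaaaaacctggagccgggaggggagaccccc
ITGA6: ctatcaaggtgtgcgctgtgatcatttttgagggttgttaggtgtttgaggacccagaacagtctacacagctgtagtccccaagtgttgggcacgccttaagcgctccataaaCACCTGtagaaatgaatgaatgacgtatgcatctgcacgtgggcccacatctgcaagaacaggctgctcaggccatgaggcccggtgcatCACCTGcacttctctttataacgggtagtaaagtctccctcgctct

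The LAMA3 window is chr18:23872770-23873019, inside an intron of the longest LAMA3 transcripts and directly before the start of the shorter form. Its E-box begins 73 bases before the start and shares its last bases, TG, with a TGANTCA match that begins 69 bases before it, and a further TGANTCA match begins at 125 bases. An E-box and TGANTCA joined in this way were in 0.0626% of all windows. The joined pattern follows the LAMA3 arrangement itself, so its share is a description and no test of that arrangement. The LAMB3 window, chr1:209652426-209652675 on the minus strand, has its E-box 218 bases before the start. The ITGA6 window, chr2:172427086-172427335, has E-boxes 136 and 46 bases before the start. Neither of these last windows overlaps an exon of its gene. These matches describe the letters only, and the libraries hold no measure of Snail binding or of the genes' response to it.

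Other genes of the basement membrane and its contacts were read by the same test, against the shares of all tested genes given above for CPM. Of 9 other laminin chain genes, Nanopore detected 5 and Illumina 8, and LAMC3 was at 0 in both. LAMC1, of the γ1 chain found in most laminins, had 43 Nanopore and 43232 Illumina counts, and LAMB1, its frequent β partner, had 37 and 55337. Their log2 ratios were −1.07 and −1.64. LAMB2 was 4-fold higher by Illumina, with 4 counts against 9405 (log2 ratio −2.20, exact binomial adjusted p = 0.000168). The median over the 5 tested chains was −1.43, with 3 higher by Illumina and 1 higher by Nanopore at an adjusted p below 0.05. The LAMB2 call ended with a pseudocount of 5 CPM and by union or canonical length, and LAMB1 and LAMC1 turned to 1.11 and 0.55 by union length. By union, mean and canonical length the median of the 5 became 0.55, −0.032 and 0.57, and LAMA5, of the α5 chain, was 4-fold higher by Nanopore by union and canonical length.

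Among 11 basement membrane and anchoring fibril genes, 7 were tested, with a median log2 ratio of −1.15, and 4 were higher by Illumina and none by Nanopore. AGRN, of the heparan sulfate proteoglycan agrin, led by Illumina TPM (32.8) with 39 Nanopore counts and a log2 ratio of −0.43. COL4A6 and COL4A2, of network-forming collagen IV, had ratios of −2.35 and −1.81. COL7A1, of the anchoring fibrils that hold the basement membrane to the dermis in skin, had no Nanopore count and 4634 Illumina counts, 24.2 CPM. With the Nanopore level set at the floor of 3 counts, its level was 3.25-fold higher by Illumina, short of 4-fold. This is not a lower bound, as the Wilson interval of its Nanopore level reached 9.53 CPM, above that floor of 7.44 CPM. The 4-fold call for COL7A1 instead takes its Nanopore level as 0 with 1 CPM added. COL4A6 and COL7A1 were the 2 genes of the list called 4-fold higher by Illumina, COL4A6 alone with a filter of 20 CPM and neither under any of the 3 lengths. By union, mean and canonical length the median became 0.96, −0.41 and 0.86, with AGRN at 1.53 and COL4A2 at 0.96 by union length. HSPG2, of the proteoglycan perlecan, was then 4-fold higher by Nanopore by union and canonical length.

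Of 10 partners of the members, all were tested, with a median of −0.62, and 5 were higher by Illumina and 3 by Nanopore. The keratin genes KRT5 and KRT14, whose filaments plectin and dystonin anchor, had more counts than any member in both libraries. KRT5 had 680 Nanopore and 277508 Illumina counts (948 TPM by union length), and KRT14 had 322 and 117214 (734 TPM). Their log2 ratios were 0.22 and 0.38. ITGB1, named above, had a ratio of −0.83. DAG1, the dystroglycan gene, and FERMT1, of kindlin-1, were 4-fold higher by Illumina, at −2.20 and −2.04. DAG1 alone was called under TMM scaling, median-ratio scaling or a pseudocount of 5 CPM, and neither gene under any of the 3 lengths. By union, mean and canonical length the median of the partners became 0.31, 0.097 and 0.45, ITGB1 was at 1.58 by union length, and CD9, of a tetraspanin, was 4-fold higher by Nanopore by union length. Of the other plakin genes, DSP had 53 Nanopore and 35664 Illumina counts (−0.50), PPL 13 and 7464 (−0.26) and EVPL 1 and 2225 (−1.86). The 4 plakins had a median of −1.18, 2 of them higher by Illumina and none past 4-fold. By union, mean and canonical length it became 1.49, 0.57 and 1.73, and a 4-fold call for Nanopore appeared for MACF1 by union length and for DSP by canonical length.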

How the data were processed

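Polyadenylated RNA of MCF10a-Snail-ER cells was measured in 1 Nanopore and 1 Illumina library, grouped by their titles. The authors deposited whole-number counts per Ensembl gene, without normalization, in 1 column per table. The tools minimap2 2.11-r797, HISAT2 2.1.0 and featureCounts and the build hg38 are named per the submitters' processing notes. The names of the deposited tables abbreviate minimap2 for Nanopore, HISAT2 for Illumina and featureCounts for both. Counting options, strand use and the release of the annotation were not given in the sources used here. This bears on genes that overlap another.

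Of the 58735 identifiers, 58207 matched GENCODE release 44 (hg38), which gave symbols, positions and lengths. Counts were divided by the library total (CPM), and the log2 ratio of Nanopore to Illumina was taken after 1 CPM was added to each. Every gene with a mean of 5 CPM or more was tested by a two-sided exact conditional binomial test, with Benjamini-Hochberg adjustment over all of them and a call at an adjusted p below 0.05 and 4-fold. The test was checked on counts simulated from the Illumina levels with counting error only. That check does not cover differences in method between the platforms. Illumina TPM used union exonic, mean transcript or Ensembl canonical transcript length. Intervals are 95% Wilson for CPM and exact binomial for ratios of counts, and cover counting error only. The floor was 3 counts. TMM came from edgeR 4.0.16 in R 4.3.3, other values from scipy 1.17.1 in Python 3.11.15. Copies on alternate contigs were alignments of at least 80% of the canonical transcript at up to 5% divergence (minimap2 2.31, spliced).

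All 9 members are named. From each other list the 3 genes highest by Illumina TPM (union length) and every 4-fold call are named, and overlapping genes with at least 10 counts. The members and lists were chosen with earlier results of these data known. LAMA5, HSPG2, CD9 and MACF1 were named after their values were seen. Added after the data were seen were the ITGA3 to ITGB1 ratio, the omission of members whose 3′ end lies in another gene, and transcripts from other RefSeq starts. The joined motif pattern follows the LAMA3 window.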

Additional observations from a re-analysis of the deposited data

How the results depend on the processing

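The direction of all 9 members, lower by Nanopore, held under TMM and median-ratio scaling, which shifted the log2 ratios of tested genes by a median of 0.084 and 0.12. Shifts of that size could not turn a member, as the ratio nearest to 0 was −0.64 (ITGB4). Pseudocounts of 0.1 and 5 CPM, no filter and a filter of 20 CPM cannot change the sign of a ratio, so they were no test of the direction. Under all these settings the median of the 9 stayed between −1.27 and −1.14. The single 4-fold call, ITGA6, became 0 calls under TMM scaling, median-ratio scaling, a pseudocount of 5 CPM, and each of the 3 divisions by length, and a 2-fold threshold gave 6 calls. Leaving out the 3 members whose 3′ end lies in another gene removes ITGA6 itself and so leaves 0 calls by construction. Calls 4-fold higher by Nanopore went from 0 to 1 by union length, 1 by mean length and 2 by canonical length. The median of the 9 became 0.25 by union length, −0.20 by mean length and 0.57 by canonical length. Directions turned, by union, mean and canonical length in that order, for LAMA3 (0.83, 0.0016, 1.18), ITGB4 (0.67, 0.45, 1.27), PLEC (1.55, 2.35, 2.15) and DST (3.28, 1.55, 3.14). They turned by union and canonical length only for ITGA3 (0.25, 0.052) and COL17A1 (0.092, 0.57). By the exact binomial test these ITGA3 and COL17A1 ratios did not reach an adjusted p below 0.05. Nor did those of LAMA3 and ITGB4 by mean length. With the longest coding transcript from other RefSeq starts, LAMA3 was at 0.28, LAMB3 at 0.060, and DST at 2.70 and 2.62. ITGA6 was then at −0.82 against −0.12 by canonical length. The division itself lowers Illumina values of long genes. Over all tested genes, 4-fold calls were 1597 (Nanopore higher) and 908 (Illumina higher), and with division by length 1859 and 580 (union), 1662 and 471 (mean) or 1903 and 397 (canonical). With 20 to 86 Nanopore counts per member, the depth of that library limits each ratio. No paired analysis was possible because each platform has 1 library and the labels give no replicate numbers.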
